A study of Mus musculus with 20 samples.

Results

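The genes described here are 8 genes tied to the epithelial-to-mesenchymal transition (EMT): the transcription factor genes Snai1, Snai2, Twist1, Zeb1 and Zeb2, the cadherin genes Cdh2 and Cdh11, and Vim. They were chosen by name and not by a filter on their values, though with earlier results of these data known. They are 8 of 54446 gene IDs in the deposited tables. All 8 were present in every table and passed the filter of a mean of at least 1 TPM (transcripts per 1000000, a level corrected for transcript length). The samples were structures grown from mouse embryonic stem cells of the line F1G4, carrying the double reporter T::H2B-mCherry/Sox2::H2B-Venus, which marks cells that express Brachyury or Sox2. Every group had been aggregated from cells taken off their feeder layer and pulsed with 3 µM CHIR99021, a GSK3 inhibitor that activates WNT signalling, after 48 h. The group 96h was collected at 96 h, with 10 structures pooled per library. Of the groups collected at 120 h, with 6 structures pooled per library, Gastruloid had no Matrigel, TLSMG had Matrigel (a gel of basement membrane proteins), TLSMGC had Matrigel and CHIR99021, and TLSMGCL had Matrigel, CHIR99021 and LDN, known as an inhibitor of BMP receptors. Each group had 3 bulk RNA libraries, described in the labels as biological replicates. Per the labels only structures that showed an asymmetric pole were selected, so the values describe selected structures of 1 cell line.

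In EMT, cells lose the junctions that hold an epithelium together and gain motility. The zinc-finger proteins SNAI1 and SNAI2, the E-box binding proteins ZEB1 and ZEB2, and the basic helix-loop-helix protein TWIST1 are known to repress epithelial genes such as Cdh1, which encodes E-cadherin, or to promote mesenchymal ones. In the gastrulating mouse embryo, FGF signalling and SNAI1 are needed for cells to leave the primitive streak as mesoderm, while N-cadherin, encoded by Cdh2, takes over from E-cadherin. Somites later form as epithelial blocks, and their ventral part becomes mesenchyme again as sclerotome. SNAI2 also takes part in the EMT of neural crest cells, and vimentin, the product of Vim, is the intermediate filament of mesenchymal cells.

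Promoters are shown for the 3 genes with RefSeq entries that carry the main contrasts below: Snai1, which fell most of the 8 after 96 h, Twist1, which was higher with added CHIR99021, and Vim, which was highest in TLSMG. Of the 8 genes, 4 matched an entry in the RefSeq promoter table (GRCm38.p6), and the fourth was Zeb2. Each sequence holds the 250 bases before the RefSeq start, on the plus strand, 5′ to 3′. The Vim window lies inside the gene span used for its TPM, which begins earlier, at 13573927. Capitals mark CACCTG (or CAGGTG on the other strand), the E-box bound by SNAI and ZEB proteins, and TATAAA, searched on both strands.
Snai1, chr2:167537945-167538194: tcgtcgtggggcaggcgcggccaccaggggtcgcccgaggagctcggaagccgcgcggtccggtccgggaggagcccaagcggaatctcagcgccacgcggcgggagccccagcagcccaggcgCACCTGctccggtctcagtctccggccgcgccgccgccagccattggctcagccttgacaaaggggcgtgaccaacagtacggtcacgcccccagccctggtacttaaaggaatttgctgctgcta
Twist1, chr12:33957421-33957670: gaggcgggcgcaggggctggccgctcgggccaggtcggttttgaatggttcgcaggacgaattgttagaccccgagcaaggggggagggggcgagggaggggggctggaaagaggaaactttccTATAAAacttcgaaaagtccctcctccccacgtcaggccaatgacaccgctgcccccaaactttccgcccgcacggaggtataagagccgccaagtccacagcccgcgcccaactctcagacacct
Vim, chr2:13574061-13574310: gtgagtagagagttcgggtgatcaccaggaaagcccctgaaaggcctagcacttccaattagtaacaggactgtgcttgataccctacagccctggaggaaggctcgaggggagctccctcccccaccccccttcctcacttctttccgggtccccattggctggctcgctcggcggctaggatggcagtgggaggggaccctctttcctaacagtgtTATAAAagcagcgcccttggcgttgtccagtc
The Snai1 window held 1 CACCTG, which began 126 bases before the start. SNAI1 is known to bind an E-box in its own promoter. The Twist1 and Vim windows held no CACCTG, and each held 1 TATAAA, which began 126 and 32 bases before the start. Among 32807 RefSeq promoter windows of the same length, 17.2% held CACCTG and 12.4% held TATAAA. The core letters of TCF/LEF sites (CTTTG followed by A or T at each of the next 2 places, either strand), the factors through which WNT signalling acts, were in 14.8% of the windows and in none of these 3. A match is a description of the letters and no measurement of binding.

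Between 96 h and 120 h the genes moved in opposite directions. Snai1 fell and Snai2, Cdh11 and Vim rose in each of the 4 comparisons with 96h, which share the same 3 control libraries. In Gastruloid, 6 of the 8 genes changed, 3 higher and 3 lower, where 41.2% of all 14290 genes tested changed, 20.8% higher and 20.5% lower (limma on log2(TPM + 1), adjusted p under 0.05). In TLSMG, 6 changed, 5 higher and 1 lower, against 46.0% of all genes, 33.5% higher and 12.5% lower. In TLSMGC, 7 changed, 5 higher and 2 lower, against 40.7% of all genes, 20.6% higher and 20.1% lower. In TLSMGCL, 7 changed, 5 higher and 2 lower, against 39.5% of all genes, 17.4% higher and 22.1% lower. The median log2 difference of the 8 genes was 0.19, 0.38, 0.38 and 0.34 in Gastruloid, TLSMG, TLSMGC and TLSMGCL, and that of all genes was 0, 0.14, 0.02 and -0.02. In bulk RNA, fewer cells of a type and less RNA per cell cannot be told apart.

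Among the groups at 120 h, Snai1, Snai2 and Vim were higher with Matrigel, and Snai2 and Vim were lower again, with Cdh11, once CHIR99021 was added. In TLSMG against Gastruloid, 3 genes rose, Snai1, Snai2 and Vim, and none fell, against 39.3% of all genes changed, 31.5% higher and 7.87% lower. In TLSMGC against TLSMG, Twist1 rose and Snai2, Zeb2, Cdh11 and Vim fell, 5 of 8 against 40.9% of all genes, 10.4% higher and 30.5% lower. In TLSMGCL against TLSMG, the same 5 genes changed in the same directions, against 44.9% of all genes, 9.31% higher and 35.6% lower. These 2 comparisons share their TLSMG libraries. In TLSMGCL against TLSMGC, limma called none of the 8, against 1.18% of all genes, 0.406% higher and 0.777% lower. At an unadjusted p under 0.05, 2 of the 8, Snai1 and Snai2, were lower in TLSMGCL, where 8.50% of all genes were lower at that threshold. The median log2 difference of the 8 genes was 0.40, -0.36, -0.50 and -0.15 in these comparisons, and that of all genes was 0.13, -0.16, -0.18 and -0.04. Moderated F tests found 7 of the 8, all but Zeb1, to differ among the 5 groups, against 73.5% of all genes, and 5 to differ among the 4 groups at 120 h, against 62.7%.

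**Figure D1:**
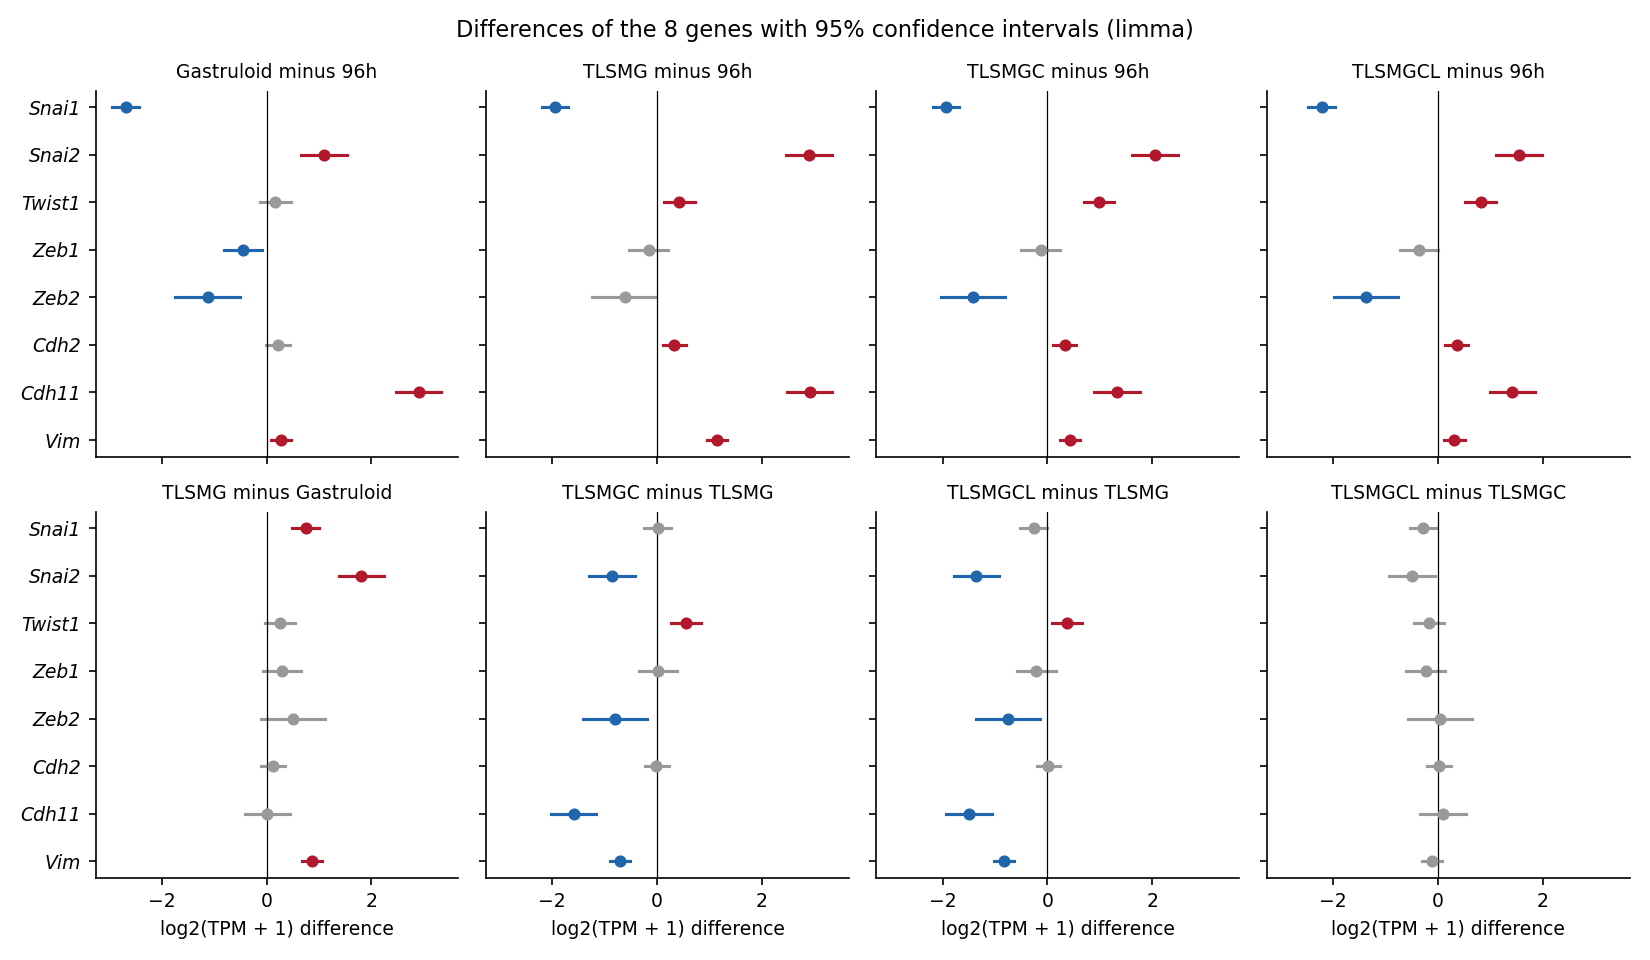
Log2(TPM + 1) differences of the 8 genes in 8 comparisons, first group minus second, with 95% confidence intervals from limma. Red marks an adjusted p under 0.05 with a higher level, blue the same with a lower level, and grey the rest. Snai1 lies left of 0 and Snai2, Cdh11 and Vim lie right of 0 in all 4 comparisons with 96h, while all 8 points of TLSMGCL minus TLSMGC are grey.

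Snai1 (chromosome 2, 167538195 to 167542814, plus strand), the snail repressor of the primitive streak, had 113, 117 and 121 TPM in the 96h libraries. The Gastruloid libraries gave 13.8, 20.4 and 18.2 TPM. The TLSMG libraries gave 33.3, 26.3 and 29.7 TPM. All 96h libraries lay far above all libraries at 120 h. The TLSMGC libraries gave 28.8, 28.7 and 32.2 TPM and the TLSMGCL libraries 25.2, 25.4 and 23.0 TPM. The mean was 6.71-fold lower in Gastruloid than at 96h (log2 difference -2.69 ± 0.12 SE, adjusted p = 1.08e-09) and 3.94-fold lower in TLSMG (log2 difference -1.95 ± 0.12 SE, adjusted p = 2.39e-08). Within 120 h, Gastruloid stood lowest, and TLSMG was 1.70-fold above it (log2 difference 0.75 ± 0.12 SE, adjusted p = 0.000524) with no overlap of libraries. TLSMGC and TLSMG overlapped, with a difference of 0.01 (95% interval -0.24 to 0.27). TLSMGCL lay below TLSMGC in every library, but the difference of -0.28 did not pass the test (adjusted p = 0.339).

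Genes listed as inputs to EMT in the primitive streak were lower at 120 h, as Snai1 was. Of 13 genes listed for this role, among them Brachyury (T), Tbx6, Fgf8 and Wnt3a, 11 were tested and all 11 fell in each of the 4 comparisons with 96h, with medians from -2.36 to -3.23 on the log2 scale, where 12.5% to 22.1% of all genes fell. Mixl1, with a mean of 3.85 TPM at 96h, stayed under 1 TPM in all libraries at 120 h. It passed the filter only through 96h, so its fall was built into the filter. Msgn1, a presomitic transcription factor gene, fell from 136 ± 36.5 TPM (SD, n = 3) at 96h to 0.165 ± 0.164 TPM in Gastruloid (adjusted p = 5.38e-11). In TLSMGC against TLSMG, 6 of the 11 rose and 1 fell, against 10.4% and 30.5% of all genes, while Snai1 differed by 0.01. The summed level of 6 presomitic markers was 1222 to 1568 TPM at 96h. It lay between 67.3 and 115 TPM in Gastruloid and TLSMG, and between 280.0 and 366 TPM in the groups with added CHIR99021. Their part in the Snai1 levels was not tested.

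Snai2 (chromosome 16, 14705852 to 14709385, plus strand), the slug gene, ran the other way. It had 1.43, 1.27 and 1.41 TPM at 96h and 2.90, 3.77 and 5.93 TPM in Gastruloid. The TLSMG libraries held the highest levels, 18.2, 16.4 and 15.8 TPM. The TLSMGC libraries had 8.79, 11.3 and 6.82 TPM and the TLSMGCL libraries 6.13, 4.70 and 7.23 TPM. TLSMG overlapped with no other group, whereas TLSMGCL overlapped with Gastruloid and TLSMGC. The mean rose 12.3-fold from 96h to TLSMG (log2 difference 2.91 ± 0.20 SE, adjusted p = 9.17e-08) and 3.07-fold from 96h to Gastruloid (1.09 ± 0.20, adjusted p = 0.000766). TLSMG was 4.00-fold above Gastruloid (log2 difference 1.81 ± 0.20 SE, adjusted p = 7.86e-05). TLSMGC was 1.87-fold below TLSMG (adjusted p = 0.00439) and TLSMGCL 2.79-fold below it (adjusted p = 0.000141). Of the 4 groups at 120 h, the TLSMG libraries also held the most RNA of endothelial markers: the sum of 9, among them Kdr and Cdh5, was 10.1 to 14.8 TPM at 96h and 267 to 324 TPM in TLSMG. It was 34.6 to 45.8 TPM for Gastruloid, 25.1 to 84.5 TPM for TLSMGC and 12.8 to 21.2 TPM for TLSMGCL. Their part in the Snai2 level was not tested. Of 8 neural crest markers, 3 passed the filter: Pax3, Sox9 and Ets1. Of the others, Sox10 and Tfap2a stayed under 1 TPM in all 15 libraries. Foxd3 reached at most 1.29 TPM at 96h and 1.20 TPM in TLSMG. Tfap2b was listed at 0 in every library of 96h, TLSMGC and TLSMGCL and reached at most 1.12 TPM in TLSMG, and Erbb3 reached at most 1.42 TPM, also in TLSMG. The summed level of the 8 was 133 to 148 TPM in TLSMG and 79.6 to 96.7 TPM in Gastruloid, and lay between 44.5 and 66.1 TPM in the other libraries. In TLSMG it was led by Ets1, which endothelium also expresses, with a mean of 79.6 TPM, and at 96h by Pax3, with 22.0 TPM. Their part in the Snai2 level was not tested either.

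The ratio of Snai1 to Snai2 TPM, chosen after these values were seen and given as a description, was 79.4, 92.2 and 86.2 in the 96h libraries. It was 4.76, 5.42 and 3.07 in Gastruloid and 1.83, 1.60 and 1.88 in TLSMG. In TLSMGC it was 3.28, 2.54 and 4.72 and in TLSMGCL 4.11, 5.40 and 3.18. Snai1 thus stayed the more abundant of the pair in all 15 libraries, by least in TLSMG.

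**Figure D2:**
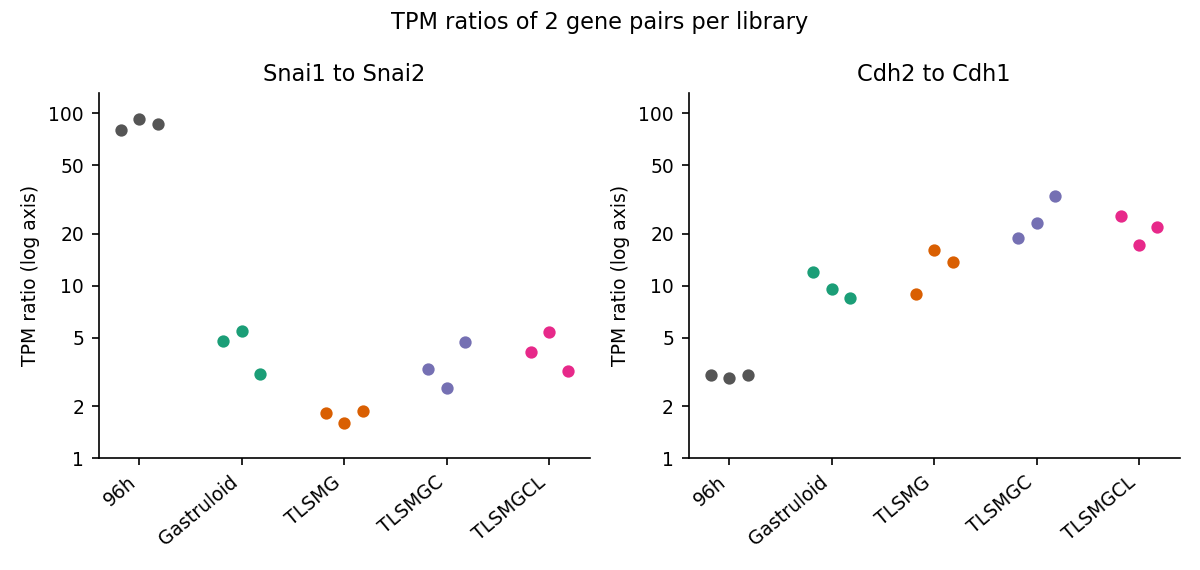
TPM ratios of Snai1 to Snai2 and of Cdh2 to Cdh1 on log axes, 1 point per library, 3 libraries per group. The Snai1 to Snai2 ratio lies between 79.4 and 92.2 at 96h and between 1.60 and 5.42 in the other groups, and the Cdh2 to Cdh1 ratio is lowest at 96h.

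Twist1 (chromosome 12, 33957671 to 33959829, plus strand), a mesoderm helix-loop-helix gene, was abundant at 96h already. The 96h libraries gave 83.9, 62.7 and 56.1 TPM, and the Gastruloid libraries gave 66.6, 78.9 and 80.7 TPM, within the range of 96h. The TLSMG libraries gave 88.9, 91.2 and 91.1 TPM. The TLSMGC libraries reached 144, 138 and 118 TPM and the TLSMGCL libraries 125, 101 and 129.6 TPM, all above every library without added CHIR99021 after the pulse. TLSMGC was 1.48-fold above TLSMG (log2 difference 0.55 ± 0.14 SE, adjusted p = 0.00551) and TLSMGCL 1.31-fold (0.38 ± 0.14, adjusted p = 0.0345). The TLSMGCL call was lost in 5 of the 6 fits that left out 1 library of either group, all but TLSMGCL replicate 2, with adjusted p from 0.0710 to 0.114. Against 96h, Twist1 rose 1.34-fold in TLSMG (adjusted p = 0.0179), 1.97-fold in TLSMGC (adjusted p = 6.66e-05) and 1.76-fold in TLSMGCL (adjusted p = 0.000336). The TLSMG call was lost without 96h replicate 2 (adjusted p = 0.0621) or 3 (adjusted p = 0.0885) and with median-of-ratios scaling (adjusted p = 0.107). The Gastruloid difference of 0.17 from 96h (adjusted p = 0.333) became 0.34 without 96h replicate 1 (adjusted p = 0.0425). TLSMG was 0.26 above Gastruloid (adjusted p = 0.141), which passed the test in a fit of only those groups (adjusted p = 0.0374).

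Its paralogue Twist2 had another pattern. Twist2 rose from 0.937 ± 0.0692 TPM (SD, n = 3) at 96h to 23.6 ± 2.44 TPM in Gastruloid and 23.9 ± 0.921 TPM in TLSMG. It stood at 1.77 ± 0.381 TPM in TLSMGC and 1.51 ± 0.239 TPM in TLSMGCL. TLSMGC was lower than TLSMG by -3.18 on the log2 scale (adjusted p = 6.06e-10), where Twist1 was higher. Prrx1, a mesenchymal homeobox gene, rose from 6.96 ± 2.16 TPM in TLSMG to 15.4 ± 5.44 TPM in TLSMGC (adjusted p = 0.0140), but was not called in TLSMGCL against TLSMG, at 10.3 ± 3.40 TPM. It also rose in TLSMG against Gastruloid (adjusted p = 0.000765). Of 12 other EMT transcription factor genes, 11 were tested; 1 rose and 7 fell in TLSMGC against TLSMG, where 10.4% of all genes rose and 30.5% fell (median -0.44 against -0.16 for all genes). In TLSMG against Gastruloid 4 rose and none fell, near the 31.5% and 7.87% of all genes.

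**Figure D3:**
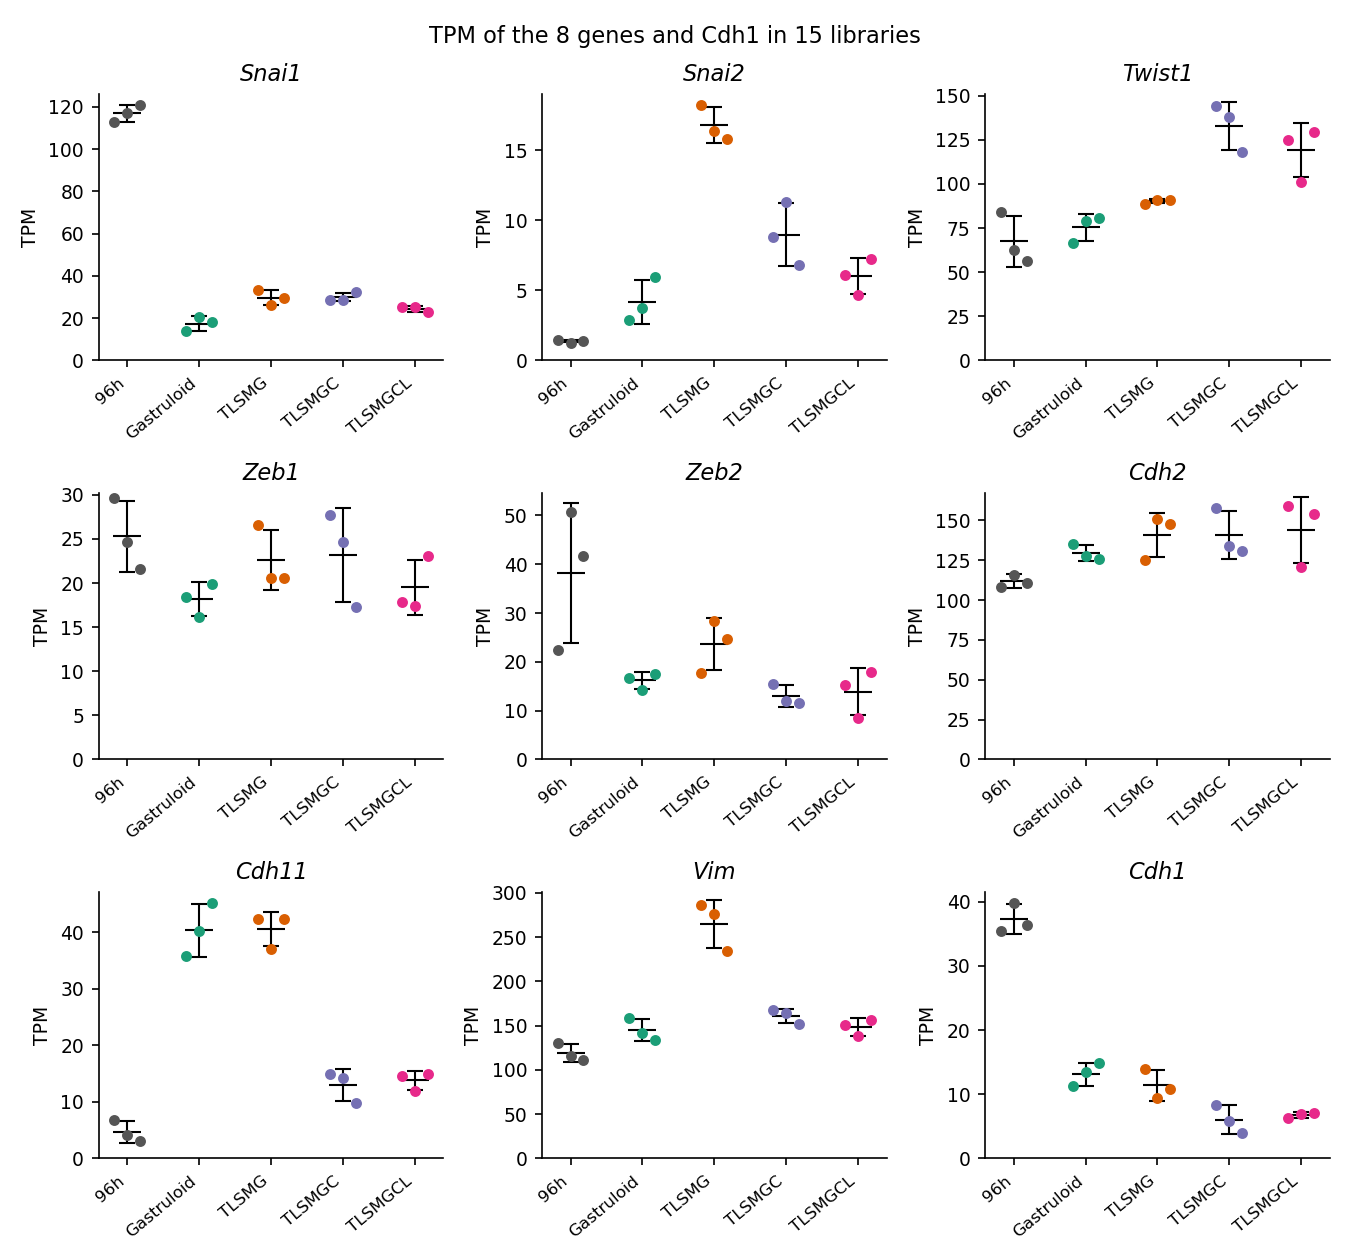
TPM of the 8 genes and of Cdh1 in 15 libraries, linear axes from 0. Each point is 1 library, and bars are the mean ± SD of the 3 libraries of a group. Snai1 and Cdh1 are highest at 96h, Snai2 and Vim in TLSMG, and Cdh11 in Gastruloid and TLSMG, while Twist1 is highest in the 2 groups with CHIR99021.

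Zeb1 (chromosome 18, 5591860 to 5775467, plus strand) was the one gene of the 8 that did not pass the F test among the 5 groups (adjusted p = 0.137). It had 29.6, 24.7 and 21.6 TPM at 96h, 18.4, 16.2 and 19.9 in Gastruloid and 26.6, 20.6 and 20.6 in TLSMG. The TLSMGC libraries had 27.7, 24.7 and 17.3 TPM and the TLSMGCL libraries 17.9, 17.4 and 23.1 TPM. Only the Gastruloid libraries lay wholly below those of 96h. That difference was 1.39-fold (log2 difference -0.45 ± 0.17 SE, adjusted p = 0.0493). The call was lost in 5 of 6 fits that left out 1 library of the groups compared, all but 96h replicate 3, with adjusted p from 0.0545 to 0.182. It was also lost without a filter on low values (adjusted p = 0.098), with FPKM (adjusted p = 0.0846) and with the GC and length correction (adjusted p = 0.0659). In the other 3 comparisons with 96h the 95% intervals were -0.53 to 0.21 (TLSMG), -0.50 to 0.24 (TLSMGC) and -0.73 to 0.01 (TLSMGCL). These intervals include falls as large as that in Gastruloid. With the GC and length correction, the TLSMG difference from 96h was -0.45 and passed the test (adjusted p = 0.0313).

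Zeb2 (chromosome 2, 44983632 to 45117395, minus strand), a binding partner of SMAD proteins, had 22.5, 50.6 and 41.6 TPM at 96h. It had 16.6, 14.3 and 17.6 TPM in Gastruloid and 17.8, 28.4 and 24.7 TPM in TLSMG. The TLSMGC libraries had 15.5, 12.0 and 11.5 TPM and the TLSMGCL libraries 15.3, 8.57 and 17.9 TPM. The 96h libraries lay above those of Gastruloid, TLSMGC and TLSMGCL and overlapped with TLSMG. Zeb2 fell 2.37-fold from 96h to Gastruloid (log2 difference -1.12 ± 0.29 SE, adjusted p = 0.00650), 2.94-fold to TLSMGC (adjusted p = 0.00134) and 2.74-fold to TLSMGCL (adjusted p = 0.00179). In TLSMG the difference from 96h was -0.62 (adjusted p = 0.0915). It passed the test without 96h replicate 1 (-0.95, adjusted p = 0.0103), with median-of-ratios scaling (-0.79, adjusted p = 0.0273), with FPKM (-0.68, adjusted p = 0.0479) and with the GC and length correction (-1.15, adjusted p = 0.00201). Relative to TLSMG, Zeb2 was 1.82-fold lower in TLSMGC (adjusted p = 0.0382) and 1.69-fold lower in TLSMGCL (adjusted p = 0.0455). Both of these last calls were lost with median-of-ratios scaling (adjusted p = 0.0795 and 0.120) and with the GC and length correction (0.196 and 0.451). Without 1 library, the TLSMGC call was lost for TLSMG replicates 2 and 3 and TLSMGC replicates 2 and 3 (adjusted p up to 0.132), and the TLSMGCL call for TLSMG replicates 2 and 3 and TLSMGCL replicates 1 and 2 (up to 0.216).

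The TPM of Zeb1 and Zeb2 rest on how reads were shared among 12 and 29 annotated transcripts. A second level was therefore computed from the deposited mean depth over all exons, scaled so that genes with 1 transcript keep their TPM. TPM exceeded this coverage-derived level 11.5- to 20.0-fold for Zeb1 and 14.2- to 27.1-fold for Zeb2, against 1.67-fold for Cdh2 and 2.22- to 2.27-fold for Vim. The levels of Zeb1 and Zeb2 relative to the other genes are therefore uncertain. On the coverage-derived scale the 96h libraries had 1.55, 1.87 and 1.65 for Zeb2, a narrower spread than their TPM. The TLSMG libraries had 1.23, 1.40 and 1.46, above the Gastruloid libraries at 0.926, 0.890 and 1.03 (log2 difference 0.28, adjusted p = 0.00965). The difference between TLSMGC and TLSMG was -0.49 (adjusted p = 0.000214) and that between TLSMGCL and TLSMG -0.45 (adjusted p = 0.000376). Zeb2 was thus called lower with added CHIR99021 on both scales. The coverage-derived differences are of log2(level + 1), which shrinks them at levels this low. Their sizes therefore cannot be set beside those on the TPM scale. On the TPM scale the difference between TLSMG and Gastruloid was 0.50 (adjusted p = 0.182). This TPM difference passed the test in a fit of only those groups (adjusted p = 0.0489) and was -0.18 with the GC and length correction. Zeb2 also overlaps Zeb2os on the opposite strand, and whether the authors' counting used strand is not given in the sources used here.

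**Figure D4:**
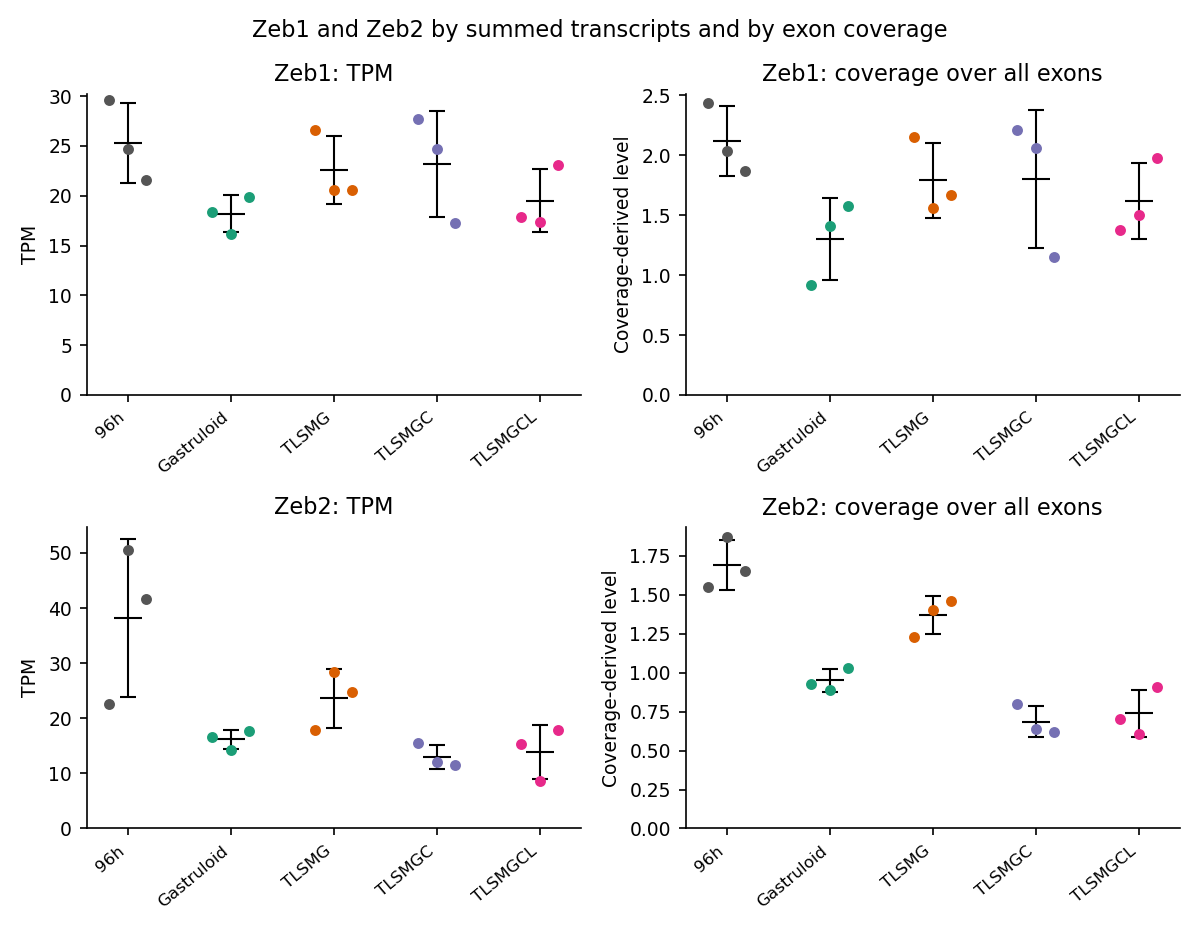
Zeb1 and Zeb2 as TPM (left) and as the coverage-derived level (right), 1 point per library with the mean ± SD of 3 libraries per group. The Zeb2 means have the same order on both scales, and the 96h libraries, from 22.5 to 50.6 TPM, lie between 1.55 and 1.87 on the right.

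Cdh2 (chromosome 18, 16588877 to 16809246, minus strand), which encodes N-cadherin, was high in every group. It had 108, 116 and 111 TPM at 96h, 135, 128 and 126 in Gastruloid and 125, 151 and 148 in TLSMG. The TLSMGC libraries had 158, 134 and 131 TPM and the TLSMGCL libraries 159, 121 and 154 TPM. All libraries at 120 h lay above those at 96h, and the 4 groups at 120 h overlapped one another. The rise over 96h was 1.27-fold in TLSMG (log2 difference 0.33 ± 0.10 SE, adjusted p = 0.0181), 1.26-fold in TLSMGC (adjusted p = 0.0223) and 1.29-fold in TLSMGCL (adjusted p = 0.0148). In Gastruloid the difference was 0.21 (adjusted p = 0.120). With median-of-ratios scaling the TLSMG call was lost (adjusted p = 0.138). All 3 calls were lost without 96h replicate 1 (adjusted p from 0.0502 to 0.0692). The TLSMG call was also lost without TLSMG replicate 2 or 3, the TLSMGC call without 96h replicate 3 or TLSMGC replicate 1, and the TLSMGCL call without TLSMGCL replicate 1 or 3 (adjusted p from 0.0539 to 0.101). The Gastruloid difference passed the test with FPKM (0.30, adjusted p = 0.0144), with the GC and length correction (0.26, adjusted p = 0.00934) and in a fit of only those groups (adjusted p = 0.0157). TLSMGC differed from TLSMG by -0.01 (95% interval -0.23 to 0.22), but by 0.27 after correction for GC content and length (adjusted p = 0.00940). TLSMGCL differed from TLSMG by 0.02, but by 0.33 with the same correction (adjusted p = 0.00263) and by 0.24 with median-of-ratios scaling (adjusted p = 0.0362).

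Cdh1 (chromosome 8, 106603351 to 106670246, plus strand), the E-cadherin gene, fell where Cdh2 rose slightly. It had 35.5, 39.8 and 36.4 TPM at 96h and 11.3, 13.4 and 14.8 TPM in Gastruloid. The TLSMG libraries had 14.0, 9.36 and 10.8 TPM, the TLSMGC libraries 8.38, 5.78 and 3.97 TPM and the TLSMGCL libraries 6.28, 7.00 and 7.05 TPM. Every library at 120 h lay below those at 96h, and those with added CHIR99021 lay below TLSMG. Cdh1 fell 2.84-fold in Gastruloid (adjusted p = 4.59e-05) and 6.16-fold in TLSMGC (adjusted p = 3e-07). The mean ratio of Cdh2 to Cdh1 was 3.00 ± 0.0754 (SD, n = 3) at 96h, 10.0 ± 1.80 in Gastruloid, 12.9 ± 3.65 in TLSMG, 25.0 ± 7.21 in TLSMGC and 21.4 ± 4.04 in TLSMGCL. Each group at 120 h lay above 96h, with an exact two-sided permutation p = 0.1 in each comparison, the smallest that 3 against 3 libraries allow. TLSMGC against TLSMG also gave an exact permutation p = 0.1, and TLSMG against Gastruloid gave 0.3 by the same exact test. Of 16 epithelial genes, 13 were tested, of which 11 fell and none rose in TLSMGC against 96h (median -0.64), where 20.1% of all genes fell. In TLSMGCL 7 fell and none rose, against 22.1% of all genes that fell, and in TLSMG 3 fell and none rose, against 12.5%. In Gastruloid 4 fell and 3 rose (median 0), against 20.5% and 20.8% of all genes. The sum of 7 gut endoderm markers was 78.6 to 125 TPM at 96h, 91.8 to 117 in Gastruloid and 79.7 to 120.2 in TLSMG. It was 38.1 to 74.8 TPM in TLSMGC and 40.9 to 58.4 in TLSMGCL. For 8 neural tube markers the sum was 65.2 to 88.2 TPM at 96h, 383 to 520 in Gastruloid and 203 to 305 in TLSMG. In TLSMGC and TLSMGCL it was 54.6 to 72.0 and 69.0 to 85.1 TPM. The part of either list in the Cdh1 and Cdh2 levels was not tested.

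Cdh11 (chromosome 8, 102632095 to 102785642, minus strand), which encodes a cadherin of loose mesenchyme and bone-forming cells, separated the groups at 120 h. It had 6.80, 4.10 and 3.15 TPM at 96h. The Gastruloid libraries had 35.8, 40.3 and 45.1 TPM and the TLSMG libraries 42.4, 37.1 and 42.4 TPM. The TLSMGC libraries had 14.9, 14.3 and 9.74 TPM and the TLSMGCL libraries 14.6, 11.9 and 14.9 TPM. Gastruloid and TLSMG overlapped, as did TLSMGC and TLSMGCL, and no library of the first pair came near the second or 96h. Cdh11 rose 8.62-fold from 96h to Gastruloid (log2 difference 2.91 ± 0.20 SE, adjusted p = 9.6e-08) and 8.67-fold to TLSMG (2.92 ± 0.20, adjusted p = 8.15e-08). It rose 2.77-fold to TLSMGC (adjusted p = 0.000155) and 2.94-fold to TLSMGCL (adjusted p = 8.91e-05). TLSMGC was 3.13-fold below TLSMG (log2 difference -1.59 ± 0.20 SE, adjusted p = 3.77e-05). TLSMG and Gastruloid differed by 0.01 (95% interval -0.42 to 0.45). A further 4 annotated genes lie on the same strand within its span, and reads shared with them cannot be told apart.

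The summed level of 10 markers of fibroblasts, the cells of the feeder layer, had the same high and low groups as Cdh11, but its members did not all do so. The sum was 29.7 to 33.4 TPM at 96h. It reached 73.4 to 93.5 TPM for Gastruloid and 79.7 to 85.4 TPM for TLSMG, and was 35.9 to 49.4 TPM for TLSMGC and 34.5 to 41.4 TPM for TLSMGCL. Pdgfrb, Col3a1 and Col1a1 were higher in Gastruloid and TLSMG than in the other groups by their means. Thy1 went the other way, from 7.01 TPM at 96h to 0.704 in Gastruloid and 0.583 in TLSMG. Col1a2 had means of 14.2 TPM in Gastruloid, 8.50 in TLSMG, 12.2 in TLSMGC and 13.3 in TLSMGCL. Its libraries in TLSMG and TLSMGC overlapped, and it was not called higher in TLSMGCL against TLSMG. Postn and Lox stayed under 1 TPM in every group, and Lum was listed at 0 in all libraries of TLSMGC and TLSMGCL. Of 6 sclerotome markers, Pax1, Pax9 and Nkx3-2 were under 1 TPM in the 96h, TLSMGC and TLSMGCL libraries and reached 1 TPM in some or all libraries of Gastruloid and TLSMG. By their means these genes were higher in Gastruloid than in TLSMG, groups between which Cdh11 differed by 0.01 on the log2 scale. The means were 61.7 and 17.0 TPM for Pax1, 3.58 and 1.55 for Pax9, and 2.34 and 0.817 for Nkx3-2. The other 3 did not share the high and low groups of Cdh11. Foxc2 was highest at 96h (342 TPM, against 121 in Gastruloid) and Uncx in TLSMGCL (35.9 TPM, against 23.6 in TLSMG). Sox9 was as high at 96h (18.9 TPM) as in Gastruloid (18.8 TPM). The part of either list in the Cdh11 level was not tested. Among 17 other cadherin genes, 9 were tested. In TLSMGC against TLSMG 8 fell and 1 rose, against 30.5% and 10.4% of all genes (median -0.83 against -0.16). The 1 that rose was Cdh15, with means of 0.25 TPM in TLSMG and 2.06 in TLSMGC. Cdh15 was under 1 TPM in all libraries of 96h, Gastruloid and TLSMG. It passed the filter only through the groups with added CHIR99021, so its rise was built into the filter. Cdh6 fell from 18.8 ± 2.76 TPM (SD, n = 3) in TLSMG to 1.21 ± 0.0822 TPM in TLSMGC (adjusted p = 4.96e-09). Cdh5, the cadherin of endothelium, rose from 0.154 ± 0.0715 TPM at 96h to 34.8 ± 4.86 TPM in TLSMG (adjusted p = 7.24e-08).

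Vim (chromosome 2, 13573927 to 13582826, plus strand) had 131, 116 and 111 TPM at 96h and 159, 142 and 134 TPM in Gastruloid. The TLSMG libraries stood apart at 286, 276 and 234 TPM. The TLSMGC libraries had 168, 164 and 152 TPM and the TLSMGCL libraries 151, 138 and 157 TPM. TLSMG overlapped with no other group, and Gastruloid, TLSMGC and TLSMGCL overlapped. Vim rose 2.22-fold from 96h to TLSMG (log2 difference 1.14 ± 0.09 SE, adjusted p = 3.12e-07) and 1.83-fold from Gastruloid to TLSMG (0.86 ± 0.09, adjusted p = 4.68e-05). TLSMGC was 1.64-fold below TLSMG (log2 difference -0.71 ± 0.09 SE, adjusted p = 4.03e-05) and TLSMGCL 1.78-fold below it (adjusted p = 8.75e-06). The rise to Gastruloid was 1.22-fold (adjusted p = 0.0243), and the call was lost without 96h replicate 2 or 3 or Gastruloid replicate 1 (adjusted p from 0.0733 to 0.108). The rise to TLSMGCL was 1.24-fold (adjusted p = 0.0135), a call lost without 96h replicate 3 (adjusted p = 0.0587) or TLSMGCL replicate 3 (adjusted p = 0.0560). The endothelial markers, whose cells are known to express Vim, were also highest in TLSMG. There all 9 had risen over 96h, where 33.5% of all genes rose. Of the 9, Cdh5, Tie1, Tek, Cldn5 and Sox18 were under 1 TPM at 96h and passed the filter only through groups at 120 h. The part of the endothelial markers in the Vim level was not tested.

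Other mesenchymal genes did not move as a block with Vim. Of 15 matrix and filament genes, 13 were tested, and in TLSMG against 96h 6 rose and 4 fell, where 33.5% of all genes rose and 12.5% fell (median 0.13 against 0.14 for all genes). Col3a1, a fibrillar collagen gene, rose from 0.503 ± 0.0551 TPM (SD, n = 3) to 14.5 ± 0.646 TPM (adjusted p = 5.67e-10). Fn1, the fibronectin gene, fell from 1201 ± 172 TPM to 165 ± 25.1 TPM (adjusted p = 3.39e-09). In TLSMGC against TLSMG, 8 of the 13 fell and 1 rose, against 30.5% and 10.4% of all genes (median -0.64).

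Genes for cofactors and signals known to act with these factors were also listed. Of 10 genes for SNAI1 partners, such as the histone deacetylases and CTBP corepressors, 3 rose and none fell in TLSMG against 96h, near the 33.5% of all genes that rose. In TLSMGC against TLSMG, none rose and 5 fell, where 30.5% of all genes fell (median -0.32 against -0.16 for all genes). Of 12 TGF-beta pathway genes, 11 were tested, and 6 rose and none fell in TLSMG against Gastruloid, where 31.5% of all genes rose and 7.87% fell. In TLSMGC against TLSMG, 9 of the 11 fell and none rose, against 30.5% and 10.4% of all genes (median -0.66). Tgfbr2, a receptor gene, went from 8.32 ± 0.759 TPM (SD, n = 3) to 1.49 ± 1.01 TPM there (adjusted p = 3.34e-05). Tgfb2, a ligand gene, rose from 19.3 ± 1.44 TPM in TLSMG to 43.1 ± 10.2 TPM in TLSMGCL (adjusted p = 0.00723). Of 6 catenin genes, whose products link cadherins to actin, none rose and 4 fell in TLSMGC against TLSMG, where 30.5% of all genes fell, led by Jup, from 26.5 ± 0.797 to 9.50 ± 1.82 TPM (adjusted p = 1.67e-06).

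The genes most alike in pattern were sought among 10910 genes with a mean of at least 5 TPM, by Pearson's r of log2(TPM + 1) over the 15 libraries. These libraries fall into 5 groups, so r mainly reflects group means and is given as a description. Snai1 was followed most closely by Spry4, an inhibitor of FGF signalling (r = 0.99), and Cited2 (r = 0.989). The Spry4 means ran from 22.0 TPM at 96h to 3.84 in Gastruloid and 5.66 in TLSMG TPM, with the 96h and Gastruloid means at the ends of the range as for Snai1. Cdh11 was followed by Pdgfrb, a receptor of mesenchymal and mural cells (r = 0.986), and by Col26a1, a collagen gene (r = 0.981). Twist1 was followed by Slc6a9, a glycine transporter gene (r = 0.957), and Ccbe1 (r = 0.954), whose mean was 4.18 TPM in TLSMG and 14.4 in TLSMGC. Snai2 was followed by Rheb (r = 0.978), whose means spanned only 66.5 TPM at 96h to 93.6 in TLSMG. Vim was followed by Cgnl1 (r = 0.951) and Casd1 (r = 0.95), both highest in TLSMG. Cdh2 was followed by Cyth1 (r = 0.91), Zeb2 by Kif3a, a kinesin gene (r = 0.944), and Zeb1 by Myo19, with the lowest leading value (r = 0.828). Among the 8 genes themselves, Snai2 and Vim were the most alike (r = 0.87), and Snai1 and Cdh11 the most opposed (r = -0.80).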

How the data were processed

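Bulk polyadenylated RNA was sequenced from 15 libraries, 3 in each of 5 groups taken from the labels, at no fewer than 23700000 fragments per sample, per the labels' protocols. The authors used cutadapt 2.4, STAR 2.7.3a and StringTie 2.0 on build mm10, per the submitters' processing notes, which give no role or order beyond the names. The deposited TPM values, 1 gene table per library, came with FPKM and coverage in the same files, per the file headers. Within a library the deposited FPKM values differed from TPM by 1 factor. The deposited coverage values, mean depth over a gene's exons, served for depth and as an alternative level, chosen after seeing the data. Lines that repeated a gene ID, 7 to 13 per table, were summed. Coverage divided by FPKM, a measure of depth, ran from 3.12 to 6.84, and 13688 to 14494 genes had at least 1 TPM. Read counts were not used, so no counting intervals were given, and an exact 0 is described as listed at 0.

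Genes with a mean of at least 1 TPM, 14290, were tested with limma 3.58.1 (R 4.3.3) on log2(TPM + 1), a scale that understates changes of low genes. One fit held all 5 groups, with a trend in the prior variance, and p-values were two-sided, adjusted by the Benjamini-Hochberg method over all genes within each of 8 comparisons, with a threshold of 0.05. Comparisons share groups and are not independent. The fit was tested on simulated data. The Cdh2 to Cdh1 ratio was tested by exact permutation, without adjustment over its 8 comparisons. Python 3.11.15 was used for the other steps. Replicates are separate pools of structures from 1 cell line; the labels name no batch. The genes and the context lists were chosen with earlier results of these data known. All 8 genes are named, with Cdh1. Context genes given with an adjusted p are those called in a list with the largest rise or fall. They had at least 5 TPM in the higher group and no overlap of libraries. Other context genes are named to describe a list and were not picked by this rule. Likeness names the highest or the 2 highest r per gene. Alternatives varied the pseudocount, filter, scaling, unit, replicate block, groups in the fit, GC and length correction, and left out each library. Single-cell samples were not analysed here. Coordinates are those of the tables, which have GRCm38 positions in the GENCODE M21 annotation.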

Additional observations from a re-analysis of the deposited data

How the results depend on the processing

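Of 39 differences called among the 8 genes in 8 comparisons, 29 kept their call and direction in all 15 alternatives run for each, and 10 lost the call in at least 1: Cdh2 in TLSMG, TLSMGC and TLSMGCL, Twist1 in TLSMG, Vim in Gastruloid and TLSMGCL and Zeb1 in Gastruloid, all against 96h, and Twist1 in TLSMGCL and Zeb2 in TLSMGC and TLSMGCL against TLSMG. None of the 39 reversed. The count of genes changed in TLSMG against Gastruloid was 5 in a fit of only those groups, and that in TLSMGCL against TLSMG was 3 without a filter on low values and 3 to 4 when 1 library was left out; the cause was not tested. Replicate numbers did not pair the samples: same-numbered libraries deviated from their group means with a mean correlation of -0.02 over 30 pairs (-0.18 to 0.1). A fit with the replicate block ended only the calls of Zeb2 in TLSMGC (adjusted p = 0.0504) and TLSMGCL (adjusted p = 0.0584) against TLSMG. Log2 differences in TLSMG against Gastruloid correlated with GC content at -0.41 across 14283 genes. Reversals arose only in differences not called. In TLSMG against Gastruloid, Zeb1 gave -0.07 and Zeb2 -0.18 with the GC and length correction; Cdh2 gave -0.05 with median-of-ratios scaling, -0.05 with FPKM and -0.11 with the GC correction; Cdh11 gave -0.16, -0.16 and -0.39 with the same 3. In TLSMGC against TLSMG, Zeb1 gave -0.01 on the coverage-derived level, and Cdh2 gave 0.17, 0.10 and 0.27 with the scaling, FPKM and GC alternatives. In TLSMGCL against TLSMG, Zeb1 gave 0.17 with the GC correction. When 1 library was left out, ranges crossed 0 for Snai1 (-0.07 to 0.09), Zeb1 (-0.11 to 0.21) and Cdh2 (-0.09 to 0.05) in TLSMGC against TLSMG, Zeb1 in TLSMGC against 96h (-0.27 to 0.06), Cdh2 in TLSMGCL against TLSMG (-0.06 to 0.15) and Cdh11 in TLSMG against Gastruloid (-0.07 to 0.09). In TLSMGCL against TLSMGC they did so for Zeb2 (-0.15 to 0.34), Cdh2 (-0.04 to 0.15), Cdh11 (-0.08 to 0.20) and the log2 Cdh2 to Cdh1 ratio (-0.38 to 0.02).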
